A study of Mus musculus with 24 samples.

Results

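Marker genes of hepatic stellate cells, matrix and sinusoidal endothelium were followed in whole-liver RNA of 24 mice. They were picked by symbol, and all 8 were found among the 2372 genes of the expression table. Of these, 6 are stellate cell or matrix genes (Postn, Pdgfra, Fn1, Dcn, Reln and Rgs5) and 2 mark the endothelium of the sinusoids (Lyve1 and Gpr182). All 24 mice were fed the Lieber-DeCarli alcohol diet for 3 weeks, so no group without alcohol was compared. Each mouse also received a pair of injections of adeno-associated virus (AAV) that carried short hairpin RNAs. The first injection held AAV-shControl or AAV-shKdm5b together with AAV-shKdm5c, which are directed at histone demethylases. The second held AAV-shControl or AAV-shAhR, directed at the aryl hydrocarbon receptor. The 4 settings are called control (AAV-shControl in both injections), Kdm5 (AAV-shKdm5b and AAV-shKdm5c, then AAV-shControl), AhR (AAV-shControl, then AAV-shAhR) and both (AAV-shKdm5b and AAV-shKdm5c, then AAV-shAhR). With 12 females and 12 males this gave 8 groups of 3 mice. The labels give no strain, age, capsid or promoter of the vectors, and they do not say which liver cells the vectors reached. Group names follow the labels. The study asks whether KDM5 demethylases act differently in female and male mice with alcohol-associated liver disease, so each effect was set beside the same effect in the other sex.

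Hepatic stellate cells lie between hepatocytes and the sinusoidal endothelium, store vitamin A while quiescent, and turn into matrix-producing myofibroblasts in injured liver. Signals through platelet-derived growth factor and transforming growth factor beta receptors drive that change. The sinusoidal endothelium is fenestrated and takes up hyaluronan and other waste molecules from blood through scavenger receptors. The aryl hydrocarbon receptor is a ligand-activated transcription factor that binds the dioxin response element, and the KDM5 enzymes remove methyl groups from lysine 4 of histone H3.

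Promoter sequences were read from RefSeq windows of build GRCm38.p6 that run from 250 bases before to 50 bases after an annotated start. The table of windows held 4 of the 8 genes (Postn, Pdgfra, Reln and Rgs5) in 5 windows, since Postn has 2 starts. Each window was searched on both strands for 5 motifs, none of which contains another. The dioxin response element, TNGCGTG, was present in 5.07% of all 32851 windows of the table. The AP-1 motif, TGANTCA, was in 7.81%, and the TEAD motif, GGAATG, in 14.7%. The motif of GATA factors, spelled AGATAA, was in 11.2%, and the ETS motif, AGGAAG, in 35.4%. The Postn and Pdgfra windows are shown because these genes rose in females that received both vector sets, and the Reln window because it alone among the 5 held the dioxin response element. Capitals mark a motif match, and positions count from 1 at the first base of the transcript and from -1 before it. The Postn window at chr3:54360857-54361156 (plus strand) held an ETS match on the reverse strand at position 10. The Reln window at chr5:22344656-22344955 (minus strand) held the dioxin response element TCGCGTG at position 22. The Pdgfra window at chr5:75152001-75152300 (plus strand) held none of the 5 motifs.
Postn: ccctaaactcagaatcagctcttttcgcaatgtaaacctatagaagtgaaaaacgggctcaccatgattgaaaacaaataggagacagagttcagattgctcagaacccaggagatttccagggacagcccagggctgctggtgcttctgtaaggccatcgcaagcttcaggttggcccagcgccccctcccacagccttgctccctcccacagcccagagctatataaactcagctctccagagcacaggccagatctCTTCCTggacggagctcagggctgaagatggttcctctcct
Pdgfra: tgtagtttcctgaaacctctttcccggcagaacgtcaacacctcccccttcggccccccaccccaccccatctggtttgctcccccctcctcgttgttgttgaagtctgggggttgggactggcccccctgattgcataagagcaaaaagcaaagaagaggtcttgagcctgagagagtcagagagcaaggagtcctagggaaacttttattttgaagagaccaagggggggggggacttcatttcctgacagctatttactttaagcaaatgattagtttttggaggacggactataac
Reln: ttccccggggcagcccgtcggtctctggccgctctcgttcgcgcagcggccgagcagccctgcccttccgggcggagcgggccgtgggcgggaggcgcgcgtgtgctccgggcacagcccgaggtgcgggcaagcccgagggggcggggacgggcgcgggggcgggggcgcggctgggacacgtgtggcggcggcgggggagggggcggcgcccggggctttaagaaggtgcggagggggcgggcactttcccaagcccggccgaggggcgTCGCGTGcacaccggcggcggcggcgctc
The other Postn window, at chr3:54359017-54359316, held an ETS match at position -228. The Rgs5 window, at chr1:169655251-169655550, held a GATA match at position -238. A match describes these letters and does not show that a factor binds there.

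Expression is given as FPKM, a fragment count scaled by transcript length and library size, a scale on which levels of different genes can be set side by side. The number of fragments behind a value is unknown, so no counting interval can be given. Groups were compared with limma, a linear model fitted to every gene at once on log2(FPKM + 0.5), with p-values adjusted over all 2299 genes tested by the Benjamini-Hochberg method. A gene passed, or was called, at an adjusted p under 0.05, and each log2 value is given with its standard error (SE). Listed FPKM summed to between 281871 and 326460 in females and between 380206 and 429780 in males. The major urinary protein (Mup) genes took 2.26 to 5.93% of that sum in females and 14.0 to 25.7% in males. Kdm5c, one of the hairpin targets, ranged from 6.39 to 7.21 FPKM in control males and from 4.64 to 5.89 FPKM in Kdm5 males, without overlap. In females it ranged from 9.32 to 11.1 FPKM in controls and from 9.05 to 9.94 FPKM in the Kdm5 group, with a log2 fold change of -0.094 ± 0.110 (SE, limma adjusted p = 0.660), so a knockdown of Kdm5c was not seen in Kdm5 females. In males the log2 value was -0.38 ± 0.11 (limma adjusted p = 0.139), and it passed where the Kdm5 vectors were added to the AhR vector (-0.51, limma adjusted p = 0.0124). The other targets, Kdm5b and Ahr, are not analysed here. The 13 lists of marker and pathway genes named 244 genes, of which 76 are analysed here and 73 were tested, so counts per list cover a part of each list. None of the 76 was listed at 0 FPKM in any library. Acta2, Des and Col1a1, further stellate cell and myofibroblast markers, are not analysed here, so the stellate label rests on Reln, Dcn, Rgs5, Pdgfra, Lrat, Hgf and Ecm1, and the endothelial label on Lyve1, Gpr182, Stab1, Stab2, Kdr, Mrc1 and Oit3.

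The 8 genes spanned a wide range of levels. Fn1 encodes fibronectin, a matrix and plasma glycoprotein that hepatocytes also make, and was the most abundant, with group means between 185 and 315 FPKM. Dcn encodes decorin, a small leucine-rich proteoglycan of quiescent stellate cells, and its group means lay between 77.5 and 149 FPKM. Gpr182, an endothelial receptor that scavenges chemokines, followed with 16.2 to 34.3 FPKM. Rgs5, a regulator of G protein signalling in pericytes, had group means of 7.99 to 16.4 FPKM, and Lyve1, the hyaluronan receptor of lymphatic and sinusoidal endothelium, had 7.14 to 15.3 FPKM. Reln encodes reelin, a secreted glycoprotein that in liver comes from stellate cells, and its means were 3.33 to 7.06 FPKM. Postn, which encodes periostin, a matricellular protein of activated fibroblasts, had means of 1.97 to 6.47 FPKM. Pdgfra, a receptor for platelet-derived growth factors, was lowest at 0.757 to 1.81 FPKM, and it reached 1 FPKM in 18 of the 24 libraries. All 8 genes passed the filter of at least 1 FPKM in at least 3 libraries, as did 2299 of the 2372 genes.

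The table lists each gene with a numeric gene identifier, given here in parentheses before the span of the whole gene on GRCm38.p6. Chromosome 1 holds Fn1 (14268) at chr1:71585473-71653280 and Rgs5 (19737) at chr1:169655501-169695813. Chromosome 3 holds Postn (50706) at chr3:54359267-54391041. Chromosome 5 holds Reln (19699) at chr5:21884454-22344705 and Pdgfra (18595) at chr5:75151322-75198206. Chromosome 7 holds Lyve1 (114332) at chr7:110850607-110862953. Chromosome 10 holds Dcn (13179) at chr10:97479500-97518163 and Gpr182 (11536) at chr10:127749602-127751798.

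**Figure D1:**
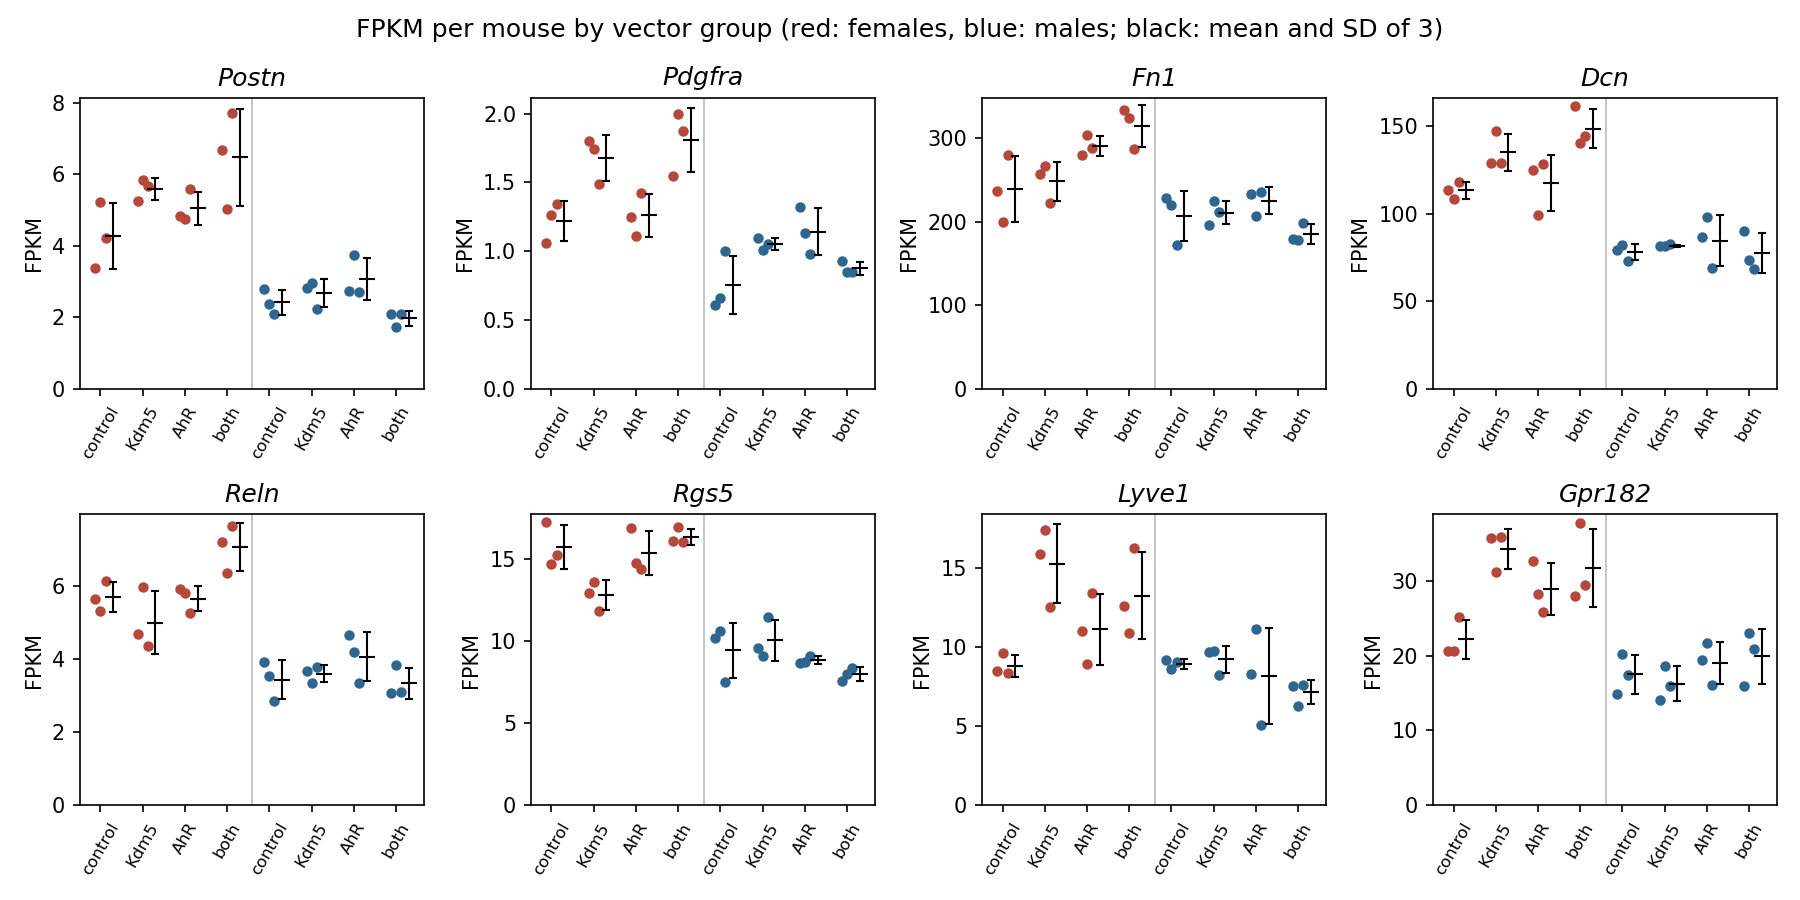
FPKM of each of the 8 genes (y axis) in the 4 vector settings of females (red, left of the line) and males (blue, right of the line). Each point is 1 mouse, and the black bar gives the mean and SD of 3 mice. All 12 females lie above all 12 males for Dcn and Rgs5.

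All 8 genes were higher in females than in males when the 4 vector settings were averaged. Postn showed a log2 difference of 0.94 ± 0.08 (SE, limma adjusted p = 4.3e-09), Rgs5 0.70 ± 0.06 (limma adjusted p = 2.39e-09) and Dcn 0.67 ± 0.06 (limma adjusted p = 7.71e-09), all on log2(FPKM + 0.5), which understates the fold change of low genes. Gpr182 differed by 0.66 ± 0.08, Reln by 0.62 ± 0.07, Lyve1 by 0.49 ± 0.10, Pdgfra by 0.45 ± 0.07 and Fn1 by 0.39 ± 0.06, with limma adjusted p between 1.08e-07 and 0.000263. This count of 8 of 8 is to be read against a wide difference between the sexes. Of all 2299 genes tested, 62.3% passed in this comparison and 42.9% passed as higher in females. The median log2 difference of the 8 genes was 0.64, beside 0.076 over all genes tested.

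The ranges over mice show how far the sexes were apart. Dcn ran from 99.3 to 161 FPKM in females (median 129) and from 68.6 to 98.2 FPKM in males (median 81.5). Rgs5 ran from 11.8 to 17.2 FPKM in females (median 15.0) and from 7.52 to 11.5 FPKM in males (median 8.91). For these 2 genes no male reached the lowest female, a separation that 13.4% of all genes tested showed in either direction. Postn ran from 3.37 to 7.71 FPKM in females (median 5.24) and from 1.72 to 3.75 FPKM in males (median 2.54), and the sexes touched only where the lowest control female fell below the highest AhR male. Reln ran from 4.35 to 7.64 FPKM in females and from 2.86 to 4.66 FPKM in males. Gpr182 ran from 20.6 to 37.7 FPKM in females and from 14.1 to 23 FPKM in males. For Reln 1 male exceeded the lowest female, and for Gpr182 3 males did. Pdgfra ran from 1.06 to 2 FPKM in females and from 0.61 to 1.32 FPKM in males, with 3 males above the lowest female. Fn1 ran from 200 to 333 FPKM in females and from 172 to 235 FPKM in males. Lyve1 ran from 8.35 to 17.4 FPKM in females and from 5.08 to 11.2 FPKM in males. For these 2 genes the ranges overlapped further, with 7 males above the lowest female for Fn1 and 6 for Lyve1.

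Among mice with control vectors, Postn, Rgs5, Reln, Dcn and Pdgfra were higher in females, and Gpr182, Fn1 and Lyve1 did not pass. Postn was 3.37, 5.22 and 4.23 FPKM in control females and 2.79, 2.37 and 2.11 FPKM in control males. These groups did not overlap, and the log2 difference was 0.70 ± 0.16 (limma adjusted p = 0.00204). Rgs5 (0.72), Reln (0.66), Dcn (0.54) and Pdgfra (0.46) also passed, with limma adjusted p between 7.07e-05 and 0.00876. Gpr182 was 20.7, 20.6 and 25.2 FPKM in control females and 14.9, 20.2 and 17.4 FPKM in control males, a difference of 0.34 ± 0.16 (limma adjusted p = 0.0896). Lyve1 was level between the sexes in control mice, at 8.47, 9.60 and 8.35 FPKM in females and 9.19, 8.59 and 9.03 FPKM in males. Its difference was -0.022 with a 95% interval from -0.45 to 0.40, and it turned to 0.064 when libraries were scaled without the Mup genes. For Fn1 the difference was 0.21 ± 0.12 (limma adjusted p = 0.162). Thus 5 of the 8 genes passed as higher in females, beside 30.8% of all genes and 42.5% of all genes in either direction. The Pdgfra call was lost when the 2 control groups were fitted alone (limma adjusted p = 0.0974). Groups did not overlap for 6 of the 8 genes, beside 47.3% of all genes. In the same mice 6 of the 9 other sinusoidal markers passed as higher in females, led by Ehd3 at 0.79 and Bmp2 at 0.74, with a median of 0.60 over the 9. All 5 other stellate markers passed, with a median of 0.59. The difference between these classes was not tested.

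The size of the sex difference depended on the scale between libraries. Its direction held for all 8 genes in the averaged comparison, and in control mice it turned for Lyve1 as given above. Median-of-ratios scaling, which sets the typical gene equal between libraries, moved the median of all genes from 0.076 to -0.041 in the averaged comparison and from 0.15 to 0.0048 among control mice. Scaling to the sum without the Mup genes moved the medians to 0.22 and 0.24. The share of calls that were higher in females was 68.8% in the averaged comparison, 50.4% under median-of-ratios scaling and 84.2% without the Mup genes. In control mice these shares were 72.6, 50.3 and 81.3%. Postn differed by at least 0.84 and Fn1 by at least 0.27 under any setting, with limma adjusted p of at most 0.000262 for these 2.

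Markers of several non-parenchymal cell types moved with these genes between the sexes. All 5 other stellate cell markers passed as higher in females, with Ecm1 at 0.70, Hgf and Abcc9 at 0.65 and Lrat, the enzyme that esterifies vitamin A for storage, at 0.63. Of 9 other sinusoidal endothelial markers 8 were higher, led by Plvap at 0.70, Oit3 at 0.64 and the scavenger receptor Stab2 at 0.60, and the remaining one, Ctsl, did not pass. Among 12 other matrix genes 10 were higher, including the basement membrane genes Nid1 at 0.99 and Hspg2 at 0.72 and the proteoglycan Lum at 0.74, and Col5a3 was lower at -0.54. All 5 markers of other vessels were higher, among them Nrp2 at 0.76 and Cdh5 at 0.63. Of 3 other genes of fibroblast activation, Tpm2 (1.06) and Mmp14 (0.74) were higher. In the list of transforming and platelet-derived growth factor signalling, Ski (0.82) and Smad7 (0.66), both inhibitors of transforming growth factor beta signalling, were among 4 of 6 genes that were higher, and the ligand gene Pdgfa was lower at -0.54.

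All 11 macrophage markers were also higher in females, with a median of 0.79 and Spic (1.11), Lyz2 (0.93) and Vsig4 (0.92) at the top. Their summed level ranged from 437 to 611 FPKM over the female groups and from 224 to 414 FPKM over the male groups. Summed levels of the 5 other stellate markers ranged from 123 to 174 FPKM in females and from 79.0 to 111 FPKM in males. Most of that sum was Ecm1, with a mean of 122 of 142 FPKM in control females and 77.7 of 91.4 FPKM in control males. Of 6 hepatocyte markers 2 were higher and 2 lower, with a median of -0.019. Single genes represented the portal fibroblast (Gas6) and leukocyte (Ptprc) lists, and both were higher in females. The smooth muscle list held no tested gene but Rgs5. The cholangiocyte list had 1 of 2 higher and 1 lower, and the retinoid list 2 of 6 higher and 3 lower. The part of these cell types and of the Mup share in the sex difference was not tested. In whole liver, fewer cells of a type and less RNA per cell cannot be told apart.

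**Figure D2:**
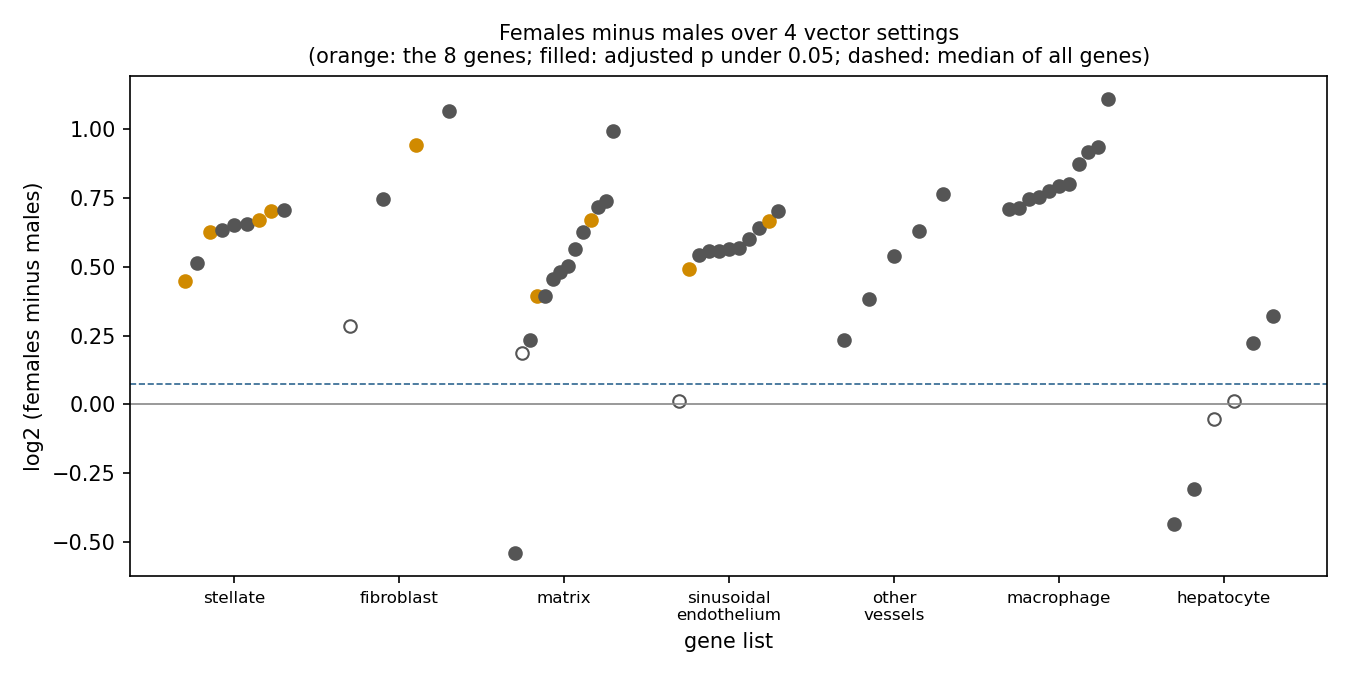
Log2 difference of females minus males, averaged over the 4 vector settings (y axis), for each tested gene of 7 gene lists (x axis). Orange points are the 8 genes, filled points passed at an adjusted p under 0.05, and the dashed line is the median of all genes tested at 0.076. The stellate, endothelial and macrophage lists lie above that line, apart from Ctsl in the endothelial list, and the hepatocyte list lies on both sides.

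In females that received the Kdm5 vectors both endothelial genes were higher than in control females. Lyve1 was 8.47, 9.60 and 8.35 FPKM in control females and 15.9, 17.4 and 12.5 FPKM in Kdm5 females. Every Kdm5 female lay above every control female, and the log2 fold change was 0.75 ± 0.20 (SE, limma adjusted p = 0.0336), a 1.68-fold rise. Gpr182 was 20.7, 20.6 and 25.2 FPKM in control females and 35.7, 31.2 and 35.9 FPKM in Kdm5 females. Again the groups did not overlap, and the change was 0.62 ± 0.16 (limma adjusted p = 0.0262), a 1.54-fold rise. These 2 of 8 genes passed, beside 6.87% of all genes tested. Both calls were lost in some fits that left out 1 mouse, while their log2 values stayed positive. Without 1 mouse at a time, the Lyve1 value stayed between 0.65 and 0.88, and its limma adjusted p ranged from 0.0299 to 0.128. It passed without control female 2 or Kdm5 female 3, and missed the threshold without control female 1 or 3 or Kdm5 female 1 or 2. It also missed it when the compared groups were fitted alone. The Gpr182 value stayed between 0.57 and 0.72, and its limma adjusted p ranged from 0.0295 to 0.107, missing the threshold without control female 1 or Kdm5 female 1 or 3.

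None of the 6 stellate and matrix genes passed in that comparison. Pdgfra was 1.06, 1.26 and 1.34 FPKM in control females and 1.80, 1.74 and 1.49 FPKM in Kdm5 females, a log2 value of 0.34 ± 0.13 (limma adjusted p = 0.126). The value was 0.37 ± 0.16 for Postn (limma adjusted p = 0.172) and 0.25 ± 0.12 for Dcn (limma adjusted p = 0.216). Rgs5 had a value below 0, at 17.2, 14.7 and 15.3 FPKM in controls and 12.9, 13.6 and 11.8 FPKM in Kdm5 females, a log2 value of -0.29 ± 0.12 (limma adjusted p = 0.134). Reln stood at -0.18 ± 0.14 and Fn1 at 0.064 ± 0.117, and the Fn1 value turned to -0.057 without control female 2. Groups did not overlap for 6 of the 8 genes (all but Fn1 and Reln), beside 23.8% of all genes. The median over the 8 genes was 0.29, beside -0.020 over all genes.

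The rest of the sinusoidal list had no call with the Kdm5 vectors in females. Of its 9 other markers none passed and none had an unadjusted p under 0.05 in limma, and their median was -0.12. They ran from -0.22 for the mannose receptor Mrc1 to 0.13 for the scavenger receptor Stab1, a pair named here for these values. The summed level of the 9 markers was 380 to 537 FPKM in control females and 393 to 482 FPKM in Kdm5 females. Ctsl, singled out after its values were seen, made up most of that sum, and without it the other 8 summed to 135 to 162 and 134 to 147 FPKM. Among 5 markers of other vessels Prox1, a transcription factor of lymphatic endothelium that hepatocytes also express, rose by 0.49 ± 0.14 (limma adjusted p = 0.0415). That call was lost without any of the 6 mice but Kdm5 female 3 (limma adjusted p 0.0451 to 0.137). In other lists, Onecut1 of the cholangiocyte list rose by 0.94 and the retinoic acid receptor gene Rara by 0.58. Sox9, the other tested gene of the cholangiocyte list, stood at 0.048 and did not pass. Onecut1 passed without control female 2 or Kdm5 female 3 and not without the other 4 mice (limma adjusted p 0.00780 to 0.149), and Rara was lost without control female 1 or Kdm5 female 3 (up to 0.0710). No gene of the stellate, fibroblast, matrix, growth factor, macrophage or hepatocyte lists passed, and the medians of the 5 other stellate and 12 other matrix genes were 0.096 and 0.057. Macrophage markers summed to 500 to 544 FPKM in control and 456 to 508 FPKM in Kdm5 females.

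**Figure D3:**
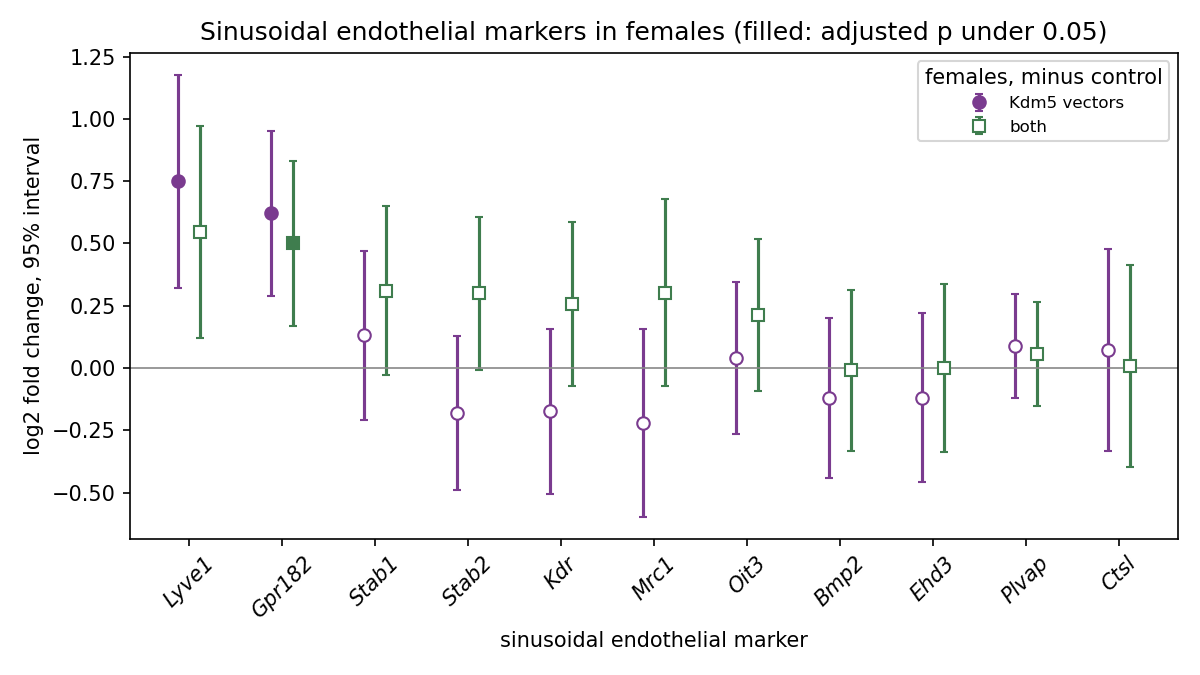
Log2 fold change in females (y axis, with 95% interval) of 11 sinusoidal endothelial markers for the Kdm5 vectors (purple) and both vector sets (green) against control vectors, which share the same control mice. Filled points passed at an adjusted p under 0.05: Lyve1 (0.75) and Gpr182 (0.62) with the Kdm5 vectors and Gpr182 (0.50) with both.

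In males neither endothelial gene passed with the Kdm5 vectors. Lyve1 was 9.69, 9.73 and 8.23 FPKM in Kdm5 males, with a log2 value of 0.039 and a 95% interval from -0.39 to 0.47. Gpr182 was 14.1, 18.7 and 16.0 FPKM, with a value of -0.10 and an interval from -0.43 to 0.23. Both values turned sign in a fit without 1 mouse, to -0.00022 without Kdm5 male 2 for Lyve1 and to 0.0020 without control male 2 for Gpr182. In limma 0 of the 8 genes passed in males, beside 1.22% of all genes, and 1 had an unadjusted p under 0.05, Pdgfra at 0.32. The difference of the Kdm5 effect between the sexes was tested directly. It was 0.72 ± 0.22 for Gpr182 (limma adjusted p = 0.0950) and 0.71 ± 0.29 for Lyve1 (limma adjusted p = 0.208), so a difference between the sexes was not shown for either gene. In that test 0 of the 8 genes passed, 3 had an unadjusted p under 0.05 in limma (Rgs5, Lyve1 and Gpr182), and 1.74% of all genes passed.

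With the AhR vector alone 0 of the 8 genes passed in either sex (limma). In females Gpr182 was 32.6, 28.3 and 25.9 FPKM, above all control females, with a log2 value of 0.38 ± 0.16 (limma adjusted p = 0.320). Fn1 was 280, 303 and 288 FPKM against 237, 200 and 280 FPKM in controls, with a log2 value of 0.29 ± 0.12 (limma adjusted p = 0.281). These were the 2 genes with an unadjusted p under 0.05, and 0.217% of all genes passed. In males Pdgfra was 1.32, 1.13 and 0.98 FPKM against 0.61, 0.66 and 1.00 FPKM in controls, a log2 value of 0.39 ± 0.13 (limma adjusted p = 0.160), with 1 AhR mouse inside the control range. It was the 1 gene of the 8 with an unadjusted p under 0.05, while 1.09% of all genes passed. In limma's test of the AhR effect between the sexes 0 of the 8 genes passed, beside 0.565% of all genes, and for 0 of them was the unadjusted p under 0.05. Lyve1 was 8.28, 11.2 and 5.08 FPKM in AhR males. Of the lists, 1 gene passed with the AhR vector alone, Cyp26b1 in males, which encodes a retinoic acid-degrading enzyme (-0.94, limma adjusted p = 0.0249). That call was lost without control male 2 or AhR male 2 (up to 0.108). In females Cyp26b1 had a similar log2 value of -0.92, which did not pass. In limma's test of the AhR effect between the sexes, 0 of 6 retinoid genes had an unadjusted p under 0.05.

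With both vector sets, females had more RNA of 4 stellate and matrix genes and of Gpr182 than control females. Fn1 was 237, 200 and 280 FPKM in control females and 333, 324 and 286 FPKM with both, a change of 0.41 ± 0.12 (limma adjusted p = 0.0336). Dcn was 114, 109 and 118 FPKM in control females and 161, 140 and 144 FPKM with both, a change of 0.39 ± 0.12 (limma adjusted p = 0.0442). Neither gene overlapped between the groups. Postn was 6.69, 5.02 and 7.71 FPKM with both, so 1 mouse fell within the control range of 3.37 to 5.22 FPKM, and the change was 0.55 ± 0.16 (limma adjusted p = 0.0378). Pdgfra was 1.55, 2.00 and 1.87 FPKM with both, above all controls, a change of 0.42 ± 0.13 (limma adjusted p = 0.0462). Gpr182 was 27.9, 37.7 and 29.5 FPKM, also above all controls, a change of 0.50 ± 0.16 (limma adjusted p = 0.0463). These folds lay between 1.31 for Dcn and 1.46 for Postn. Each of the 5 calls was lost in most fits that left out 1 mouse, while the log2 values stayed positive. None was left when the 4 female groups were fitted without the males. With 1 mouse left out at a time, Postn stayed between 0.40 and 0.71 (limma adjusted p 0.0207 to 0.176) and passed without control female 2 or the second female with both. Fn1 stayed between 0.29 and 0.53 (0.0131 to 0.119) and passed without control female 3. Pdgfra stayed between 0.35 and 0.50 (0.0486 to 0.170) and passed without the first female with both. Gpr182 stayed between 0.37 and 0.60 (0.0374 to 0.187) and passed without control female 3, and Dcn stayed between 0.33 and 0.43 (0.0574 to 0.135) and passed in none of these 6 fits. Each of these calls was lost without any other of the 6 mice. Pdgfra was also lost with median-of-ratios scaling (limma adjusted p = 0.0518) or a pseudocount of 0.1 (0.0592), and Dcn without intensity trend and robust moderation (0.0502).

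The other 3 genes did not pass with both vector sets in females. Lyve1 was 12.6, 10.9 and 16.3 FPKM, above all controls, with a log2 value of 0.55 ± 0.20 (limma adjusted p = 0.0798). Reln was 7.19, 6.35 and 7.64 FPKM against 5.65, 5.31 and 6.12 FPKM in controls, again without overlap, with a log2 value of 0.29 ± 0.14 (limma adjusted p = 0.164). Rgs5 was close to control, with a log2 value of 0.057 ± 0.117 (limma adjusted p = 0.779), and turned to -0.0023 when libraries were weighted by their quality. In all, 5 of the 8 genes passed, beside 11.6% of all genes, and the groups did not overlap for 6 of the 8, beside 32.8%. The median change of the 8 genes was 0.41, beside 0.022 over all genes.

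**Figure D4:**
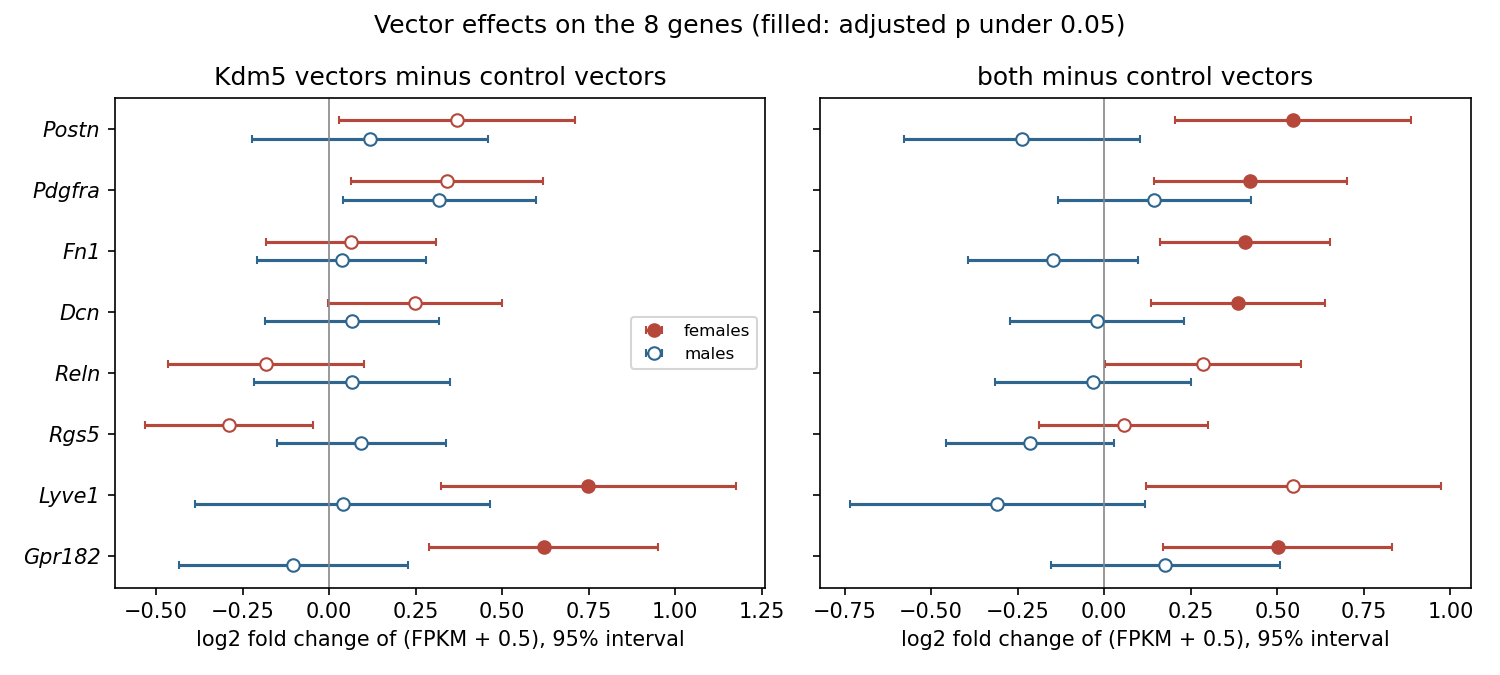
Log2 fold change of (FPKM + 0.5) with its 95% interval (x axis) for each of the 8 genes (y axis), for the Kdm5 vectors (left) and both vector sets (right) against control vectors, which share the same control mice. Red points are females and blue points males, and filled points passed at an adjusted p under 0.05. With both vector sets 5 female points are filled and no male point is.

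Related genes outside the 8 were tested in the same comparison. Of 5 other stellate markers 1 passed in females with both vector sets, Abcc9, a subunit of the potassium channel of pericytes, which went from 4.69 ± 0.51 to 6.99 ± 0.52 FPKM (SD, n = 3, log2 fold change 0.53 ± 0.11, limma adjusted p = 0.00743) and still passed with any 1 of the 6 mice left out. The median of the 5 was 0.36. Of 12 other matrix genes 2 passed, both matrix glycoproteins: Nid1 (0.56) and Efemp1 (0.60), and the median of the 12 was 0.35. Without 1 mouse at a time Nid1 passed without control female 3 alone (limma adjusted p 0.00609 to 0.114) and Efemp1 in none of the 6 fits (0.0710 to 0.120). Of 3 other fibroblast activation genes and 6 other growth factor signalling genes none passed in limma. None of the former and 1 of the latter had an unadjusted p under 0.05. None of the 9 other sinusoidal markers passed or had an unadjusted p under 0.05 in limma, with a median of 0.21 and Stab1 highest at 0.31. Prox1 rose by 0.58 among 5 markers of other vessels, a call lost without control female 1 or the second female with both (limma adjusted p up to 0.0870).

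Other cell types were measured in the same livers. Of 11 macrophage markers 1 passed, the scavenger receptor Cd163 (0.68), and their median was 0.000093. The Cd163 call was lost without control female 1 or the second or the third female with both (limma adjusted p up to 0.109). Their summed level was 500 to 544 FPKM in control females and 449 to 611 FPKM with both. The hepatocyte list had 1 of 6 that passed, Apob (0.50), with a median of -0.022, and Apob was lost without control female 1 (limma adjusted p = 0.0627). The retinoid list had 1 of 6, Rara (0.48), which passed without control female 3 or the second female with both and was lost without the other 4 mice (up to 0.125). The cholangiocyte list had 1 of 2, Onecut1 (0.80), which passed without control female 2 and was lost without the other 5 mice (up to 0.188). Gas6 and Ptprc did not pass. The summed level of the 5 other stellate markers was 128 to 151 FPKM in controls and 137 to 174 FPKM with both. Ecm1 made up most of it, at 111 to 128 and 113 to 144 FPKM. The 9 other endothelial markers summed to 380 to 537 and 412 to 467 FPKM, or 135 to 162 and 152 to 172 FPKM without Ctsl. The part of these cell types in the result was not tested.

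In males with both vector sets none of the 8 genes was called. Postn was 2.09, 1.72 and 2.11 FPKM against 2.79, 2.37 and 2.11 FPKM in control males, with a log2 value of -0.24 ± 0.16 (limma adjusted p = 0.553). Fn1 was 179, 178 and 199 FPKM, with a log2 value of -0.15 ± 0.12. Gpr182 stood at 0.18 and Pdgfra at 0.14. Lyve1 was 7.55, 6.26 and 7.62 FPKM, below all control males, with a log2 value of -0.31 ± 0.20 (limma adjusted p = 0.537). In limma 0 of the 8 genes passed, beside 2.35% of all genes, and for 0 of them was the unadjusted p under 0.05. Their median was -0.091, beside 0.0058 over all genes, and 2 of the 8 values lay above 0, beside 51.1% of all genes. Among related genes Ski passed as lower (-0.51, limma adjusted p = 0.0389), a call lost with any 1 of the 6 mice left out (0.0779 to 0.157). Of the hepatocyte list Hnf4a rose by 0.54 (limma adjusted p = 0.0101) and still passed with any 1 of the 6 mice left out.

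The effect of both vector sets differed between the sexes for Postn. The difference, females minus males, was 0.78 ± 0.23 (limma adjusted p = 0.0496), with a 95% interval from 0.30 to 1.27. Lyve1 (0.85 ± 0.29, limma adjusted p = 0.0735) and Fn1 (0.55 ± 0.17, limma adjusted p = 0.0518) did not pass. The difference was 0.41 for Dcn (limma adjusted p = 0.125), 0.32 for Gpr182, 0.32 for Reln, 0.28 for Pdgfra and 0.27 for Rgs5, so all 8 values lay above 0, with a median of 0.37 beside -0.0010 over all genes. Thus 1 of 8 passed, beside 5.92% of all genes. The Postn call held in 3 of 12 fits with 1 mouse left out (limma adjusted p 0.0264 to 0.122): without control male 3, control female 2 or the second female with both. It was lost without any of the other 9 mice. It was also lost with a pseudocount of 0.1 (limma adjusted p = 0.0510), a filter of 5 FPKM (0.0571) or the compared groups fitted alone (0.0899). Fn1 passed instead without control female 3 or the third female with both, and beside Postn without control male 3.

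Adding the AhR vector to the Kdm5 vectors in females gave no call among the 8 genes. Reln was 4.68, 5.96 and 4.35 FPKM in Kdm5 females and 7.19, 6.35 and 7.64 FPKM with both, a difference of 0.47 ± 0.14 (limma adjusted p = 0.0697). Rgs5 (0.35, limma adjusted p = 0.111) and Fn1 (0.34, limma adjusted p = 0.115) also had every mouse with both above every Kdm5 mouse. Groups thus did not overlap for 3 of the 8 genes, beside 27.2% of all genes. Lyve1 (-0.20) and Gpr182 (-0.12) had values below 0 with overlapping groups. The first 3 genes had an unadjusted p under 0.05, and 2.09% of all genes passed. All 3 passed when libraries were scaled without the Mup genes, and Reln passed without Kdm5 female 2. Outside the 8, Abcc9 rose by 0.44 (limma adjusted p = 0.0420), a call lost without Kdm5 female 3 or any of the females with both (up to 0.225). The hepatocyte marker Apob rose by 0.48 (limma adjusted p = 0.0252), a call lost without Kdm5 female 3 or the second or the third female with both (up to 0.161).

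Adding the Kdm5 vectors to the AhR vector in females gave 0.39 ± 0.13 for Pdgfra (limma adjusted p = 0.181), 0.34 ± 0.12 for Dcn (limma adjusted p = 0.195) and 0.30 ± 0.14 for Reln (limma adjusted p = 0.306). By limma 0 of the 8 passed, these 3 had an unadjusted p under 0.05, and 0.696% of all genes passed. The interaction asks whether both vector sets together differ from the sum of their separate effects. In females it was -0.51 ± 0.29 for Lyve1, -0.50 ± 0.22 for Gpr182, 0.48 ± 0.19 for Reln and 0.38 ± 0.17 for Rgs5. Of the 8 genes 0 passed, 3 (Reln, Rgs5 and Gpr182) had an unadjusted p under 0.05 in limma, and 0.609% of all genes passed.

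In males the same additions each gave values below 0 for 7 of the 8 genes, all but Gpr182. With the Kdm5 vectors added, 32.4% of all genes lay above 0, and the median was -0.19 over the 8 genes and -0.077 over all. With the AhR vector added, 48.0% of all genes lay above 0, and these medians were -0.18 and -0.011. Postn was 2.75, 3.75 and 2.71 FPKM in AhR males and 2.09, 1.72 and 2.11 FPKM with both, without overlap, a difference of -0.52 ± 0.16 (limma adjusted p = 0.0885). For Fn1 the difference was -0.28 ± 0.12 (limma adjusted p = 0.227). Of the 8 genes 0 passed, these 2 genes had an unadjusted p under 0.05 in limma, and 3.26% of all genes passed. Among related genes Nrp1 of the vessel list fell by 0.53 (limma adjusted p = 0.0139), which was lost without AhR male 3 or the second male with both (up to 0.0870). Ski fell by 0.48 (limma adjusted p = 0.0470), which was lost without any of the 6 mice but AhR male 1 (up to 0.199). Adding the AhR vector to the Kdm5 vectors gave -0.36 for Postn, -0.31 for Rgs5, -0.35 for Lyve1 and 0.28 for Gpr182. By limma 0 of the 8 passed, Postn and Rgs5 had an unadjusted p under 0.05, and 0.913% of all genes passed. Onecut1 rose by 1.12 (limma adjusted p = 0.0384), which was lost without any of the 6 mice but the second male with both (up to 0.163). The male interaction was -0.64 ± 0.23 for Postn (limma adjusted p = 0.197) and -0.57 ± 0.19 for Pdgfra (limma adjusted p = 0.143). Here 0 of the 8 passed, these 2 had an unadjusted p under 0.05 in limma, and 1.61% of all genes passed. All vector comparisons within a sex share mice with one another, so their values are not independent.

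Ordering the 8 group means of each gene showed where the groups were apart. For Postn, Pdgfra, Fn1, Dcn, Reln and Rgs5 females with both vector sets had the highest mean of all 8 groups, and each of the 4 female means lay above the highest male mean. Lyve1 and Gpr182 were highest in Kdm5 females, at 15.3 ± 2.5 and 34.3 ± 2.6 FPKM (SD, n = 3), followed by females with both at 13.2 ± 2.7 and 31.7 ± 5.3 FPKM. For Gpr182, too, the lowest female mean (22.2 FPKM) lay above the highest male mean (19.9 FPKM). For Lyve1 the control females at 8.81 ± 0.69 FPKM ranked below control males at 8.94 ± 0.31 FPKM and Kdm5 males at 9.22 ± 0.85 FPKM. Most neighbours in these orders overlapped. Of 7 neighbouring pairs of groups a gene has, all 7 overlapped for Postn and Lyve1, 6 for Fn1, Reln and Gpr182, 5 for Pdgfra and Dcn and 4 for Rgs5. For Gpr182 the gap lay between AhR females (25.9 to 32.6 FPKM) and control females (20.6 to 25.2 FPKM). For Reln it lay between females with both (6.35 to 7.64 FPKM) and control females (5.31 to 6.12 FPKM). Within groups the SD ran from 0.773% of the mean for Dcn in Kdm5 males to 37.2% for Lyve1 in AhR males.

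Deviations of single mice from the group mean were compared for all 28 pairs of the 8 genes. After adjustment over the 28, 1 pair passed. Postn and Lyve1 had a Pearson r of 0.66 over 24 mice (permutation p = 0.0012, adjusted 0.0336) and a Spearman rho of 0.69 (permutation p = 0.00128, adjusted 0.0358). Without the 2 mice farthest from the Postn median r was 0.69. Within females alone r was 0.64 (n = 12, permutation p = 0.0217) and rho 0.59 (permutation p = 0.0782), and within males r was 0.70 (n = 12, permutation p = 0.0159) and rho 0.69 (permutation p = 0.00631). With 1 mouse left out at a time r stayed between 0.57 and 0.71, and the adjusted p, between 0.0126 and 0.161, passed in 8 of 24 fits. Those were the fits without control male 2 or 3, any of the 3 AhR males, control female 1 or Kdm5 female 1 or 3, and the call was lost without any of the other 16 mice. The 2 endothelial genes did not vary together, with r of -0.021 (permutation p = 0.944) and rho of -0.17 (permutation p = 0.505) for Lyve1 and Gpr182. A further pair, Dcn and Lyve1, had an unadjusted permutation p under 0.05 (r 0.64, permutation p = 0.0387, adjusted 0.539), and its r fell to 0.26 without the 2 mice farthest from the Dcn median.

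**Figure D5:**
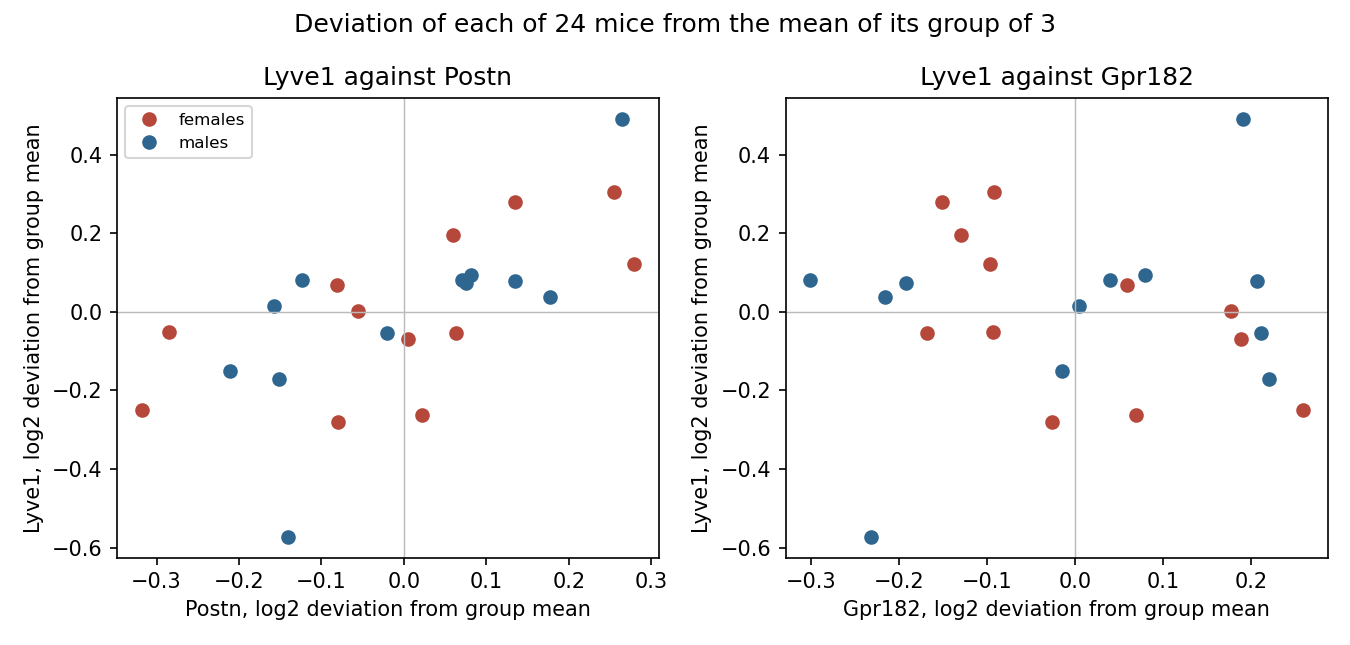
Deviation of each of 24 mice from the mean of its group of 3, in log2(FPKM + 0.5): Lyve1 (y axis) against Postn (left) and against Gpr182 (right). Red points are females and blue points males. The left panel rises from lower left to upper right (r = 0.66) and the right panel shows no such line (r = -0.021).

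The genes most like each of the 8 were ranked by the same deviations over the 24 mice, as a description. Nearest to Postn were Aqp4 (r 0.88), which encodes a water channel, and the metallothionein genes Mt1 (0.82) and Mt2 (0.79). Nearest to Fn1 were Lrp1 (0.93), which encodes a large endocytic receptor, Wnk1 (0.85) and Srgap2 (0.80). Nearest to Dcn were Ubb (0.77) and D8Ertd738e (0.75). The longest annotated coding transcripts of Fn1, Lrp1, Wnk1 and Srgap2 hold 8315, 14888, 11330 and 8026 bases, while those of Dcn, Ubb and D8Ertd738e hold 1758, 1499 and 616 bases. The part of transcript length in these likenesses was not tested. Nearest to Rgs5 were Eif2s3x (0.83), Ddx3x (0.79) and Rdh16f2 (0.77). Nearest to Lyve1 were Acsm3 (0.78), S100a1 (0.78) and Tprgl (0.77), and nearest to Gpr182 were Atp2b4 (0.72), Rplp0 (0.72) and 9530068E07Rik (0.68). For Reln they were Camk1d (0.73), Ift20 (0.72) and Trim56 (0.72), and for Pdgfra Tacc2 (0.70), Ddit4 (0.67) and Tlr2 (0.63). No other stellate or endothelial marker of the lists was among the genes named here.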

How the data were processed

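RNA of whole liver from 24 mice was measured, 3 in each of 8 groups taken from the labels, with 1 library per mouse. RNA was taken with a Qiagen kit and libraries followed BGI protocols, per the labels' protocols. The authors deposited 1 table of FPKM values, rounded to 2 decimals, per the file headers; the name of the table speaks of raw counts, but its columns are headed and scaled as FPKM. HISAT, Bowtie2 and build GRCm38.p6 are named, without versions, per the submitters' processing notes. The counting step, its use of strand and the choice of the 2372 genes are not stated in the labels or headers, so reads of overlapping or antisense genes cannot be told apart. Library depth is unknown. How mice were housed or libraries batched is not in the labels. The label numbers run in blocks by group, so an effect of that order could not be told apart from the groups. The limma p-values set each difference against the spread between mice within groups, moderated over genes.

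From these values log2(FPKM + 0.5) was computed. Genes had to reach 1 FPKM in 3 or more libraries, which kept 2299 and left out 73. limma 3.58.1 in R 4.3.3 fitted the 8 group means in 1 model with an intensity trend and robust moderation (16 residual degrees of freedom before moderation). There were 17 comparisons, each with Benjamini-Hochberg adjustment over the 2299 genes and a threshold of 0.05. Covariation used deviations from group means, 100000 reorderings of mice within groups, two-sided, and adjustment over 28 pairs. Its fits with 1 mouse left out used fewer reorderings. The fit was tested on simulated data. No pair of libraries held identical values. Alternatives were 2 scalings, other filters (none, or 5 FPKM), pseudocounts of 0.1 and 1, library weights, and no trend or robust moderation. Others were the compared groups alone and leaving out each mouse in turn. For comparisons within a sex, the compared groups alone meant the 4 groups of that sex, fitted without the other sex. The 8 genes, the lists and the rule for naming genes were chosen with earlier results of these data known. That rule takes the 8 genes, up to 4 genes a list and comparison that passed, largest change first, and the 3 genes most like each of the 8, of which 1 is not reported here; for the sex comparisons fewer than its limit are printed.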

Additional observations from a re-analysis of the deposited data

Results flagged for a closer look

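Each result here was singled out because the effect of the vectors differed between females and males by a test of the difference itself. Values are females minus males in log2 with limma's adjusted p. Of all genes tested, 1.74% passed that test for the Kdm5 vectors and 5.92% for both vector sets. For the Kdm5 vectors, Onecut1 differed by 1.48 (adjusted p = 0.0385). For both vector sets, Postn differed by 0.78 (adjusted p = 0.0496), as given above. The pericyte channel gene Abcc9 differed by 0.62 (adjusted p = 0.0225) and the macrophage scavenger receptor gene Cd163 by 1.20 (adjusted p = 0.0142). Among vessel genes, Prox1 differed by 0.94 (adjusted p = 0.0120) and Nrp2 by 0.96 (adjusted p = 0.0220). Of the hepatocyte list, Apob differed by 0.66 (adjusted p = 0.0166) and Hnf4a by -0.65 (adjusted p = 0.0145). With 1 mouse left out at a time, Prox1, Cd163, Apob and Hnf4a passed in all 12 fits, Nrp2 in 10 (adjusted p up to 0.0599), Abcc9 in 8 (up to 0.0674), Postn in 3 (up to 0.122) and Onecut1 in 3 (up to 0.111). Nrp2 was lost without control male 1 or the third male with both. Abcc9 was lost without either of these, control female 2 or the third female with both. Onecut1 was kept without Kdm5 male 2, control female 2 or Kdm5 female 3, and lost without the other 9.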

How the results depend on the processing

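The higher level of all 8 genes in females, averaged over the vector settings, passed under every setting and every omission of a mouse that tested them. The vector effects depended on the setting. The number of the 8 genes whose effect of both vector sets differed between the sexes was 1 as reported, 2 with median-of-ratios scaling, 4 with scaling without the Mup genes, 2 with no filter, 0 with a filter of 5 FPKM, 0 with a pseudocount of 0.1 and 4 with library weights. For the AhR vector added to the Kdm5 vectors in females it was 3 with scaling without the Mup genes. With library weights it was 1 for the AhR vector in males, 1 for the AhR vector added in males, 2 for the Kdm5 vectors added in males, 1 for the male interaction and 1 for the sex difference of the Kdm5 effect, all 0 as reported. With the 4 female groups fitted alone it was 1 for the Kdm5 vectors and 0 for both vector sets in females. The causes were not tested.

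Leaving out each mouse in turn gave 0 to 2 genes for the Kdm5 vectors and for both vector sets in females, 0 to 2 for the sex difference of both, 0 to 1 for the AhR vector added in females, 5 to 6 for control females against control males, and 0 to 1 passing pairs in the covariation. Values near 0 changed sign. Lyve1 in control females against males went to 0.064 with scaling without the Mup genes, and with 1 mouse left out it ran from -0.082 to 0.013, including 0.0032. Rgs5 with both vector sets in females went to -0.0023 with library weights. With 1 mouse left out, the Kdm5 value of Fn1 in females ran from -0.057 to 0.18, that of Lyve1 in males from -0.00022 to 0.11, and that of Gpr182 in males from -0.21 to 0.0020.

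Over all genes, the Kdm5 vectors in females gave 158 calls, 331 with library weights and 56 with the compared groups alone; both vector sets gave 266, 594 and 29, and 400 without the Mup genes. Without control female 1 these counts were 23 and 44, and without control female 2 they were 279 and 235. No value exists for the averaged sex comparison with compared groups alone, nor for Pdgfra with a filter of 5 FPKM. No paired analysis was possible because the labels number each mouse separately and the replicate numbers used here follow sample order. Unknown depth and 3 mice a group limit what the data can show, and a gene that missed the threshold is not shown to be unchanged.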
